A study of Mus musculus with 16 samples.

Results

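The regions described here are ATRX-dependent heterochromatin nanodomains (HNDs) that hold a G-quadruplex motif. HNDs are short stretches of chromatin with the repressive histone mark H3K9me3, and the ATRX-dependent ones carried a called H3K9me3 peak in wild-type mouse embryonic stem cells (ESCs) and none in cells without Atrx. A region was included if its mm9 sequence held, on either strand, at least 4 runs of 3 or more G separated by loops of 1 to 7 bases. A G may itself serve as a loop, so a long unbroken run of G counted as several runs, as in the Dazl motif printed below. Of the 11899 HNDs on chromosomes 1 to 19, 801 met this rule, which is 6.73% (95% Wilson interval 6.30 to 7.20), and 11098 did not. The whole list has 13113 HNDs.

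ESCs of the wild-type line wt26 were compared with Atrx knockout ESCs. The study's methods name 2 knockout lines, KO1-40 and KO1-45, with 1 replicate of each. Sample titles do not say which library came from which line. For each genotype 2 libraries each of H3K9me3 ChIP, histone H3 ChIP, control IgG ChIP and input DNA were sequenced, 16 in all. What was analysed here is 1 pooled list of HND coordinates, with no signal and no read depth for any library. No value below therefore has an error between replicates, and the loss of H3K9me3 at a given HND is the call of the list rather than something measured here. HNDs are not replicates of a genotype, so the 95% Wilson intervals given with many shares cover counting error only. Other shares have no interval, and differences between shares were not tested.

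A G-quadruplex is a four-stranded DNA structure in which guanines of several neighbouring runs pair with each other in stacked planes. It forms most readily where the strands are separated, as in transcription and replication, and telomere DNA is its classical example. ATRX is a chromatin remodeller of the SNF2 family known to bind G-quadruplex DNA and to deposit the histone variant H3.3 at telomeres and other repeats together with DAXX. A motif is a sequence that could fold, and whether it did so in these cells was not measured.

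The following sequences show kinds of motif found in the 801 HNDs. Each is read 5′ to 3′ on the strand that carries the G runs, coordinates are mm9, and runs of 3 or more G are in capitals. Dispersed repeats gave the motif sequences that recurred in the most HNDs. The 3 commonest (A to C) and a rarer one (D) are shown with 15 bases on each side, at their first copy by position among the HNDs shown: chr1:28857673-28857732, chr1:170531356-170531413, chr2:80319723-80319776 and chr2:58477432-58477487, all on the reverse strand. The fifth is the motif of a local array in St3gal4, chr9:34880273-34880295 on the forward strand. The sixth is a tandem repeat of the 10-base unit TTGGGAGGAG, chr1:137613398-137613430 on the forward strand.
Dispersed sequence A: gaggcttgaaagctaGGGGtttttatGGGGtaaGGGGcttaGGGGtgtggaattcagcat
Dispersed sequence B: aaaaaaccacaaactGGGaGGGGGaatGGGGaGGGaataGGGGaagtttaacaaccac
Dispersed sequence C: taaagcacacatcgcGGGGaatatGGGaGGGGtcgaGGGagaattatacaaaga
Dispersed sequence D: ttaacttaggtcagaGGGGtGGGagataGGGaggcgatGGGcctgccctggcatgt
St3gal4 array motif: GGGaagagtcGGGGGaGGGaGGG
Unit of 10 bases: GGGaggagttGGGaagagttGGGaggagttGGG

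HNDs held fewer G-quadruplex motifs than their length of sequence would hold elsewhere. They covered 0.295% of the known bases of chromosomes 1 to 19 and held 964 of the 453286 motifs there, which is 0.213%. Motif density was 137 per Mb in HNDs and 189 per Mb over the same chromosomes. On each of the 19 chromosomes the share of motifs that lay in HNDs was below the share of bases in HNDs. The share of HNDs with a motif ranged from 4.08% on chromosome 19 to 8.70% on chromosome 1, with a mean of 6.55% ± 1.05 (SD over 19 chromosomes).

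A motif is more likely to occur in a longer sequence, so the share of HNDs with a motif was set beside that of all mm9 windows as long as the median HND of the class. Among HNDs under 250 bp, 41 of 3318 had a motif (1.24%, 0.912 to 1.67), against 2.88% of windows of 168 bp. From 250 to 499 bp the share was 3.90% (3.32 to 4.59) against 5.90% of windows of 347 bp. From 500 to 999 bp it was 7.58% (6.70 to 8.56) against 11.3% of windows of 686 bp. The gap was smallest from 1000 to 1999 bp, where 298 of 1578 HNDs (18.9%, 17.0 to 20.9) and 20.1% of windows of 1299 bp had a motif, and the interval held the value of the windows. Of the 329 HNDs of 2000 bp or more, 87 had a motif (26.4%, 22.0 to 31.5), against 34.4% of windows of 2477 bp.

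**Figure D1:**
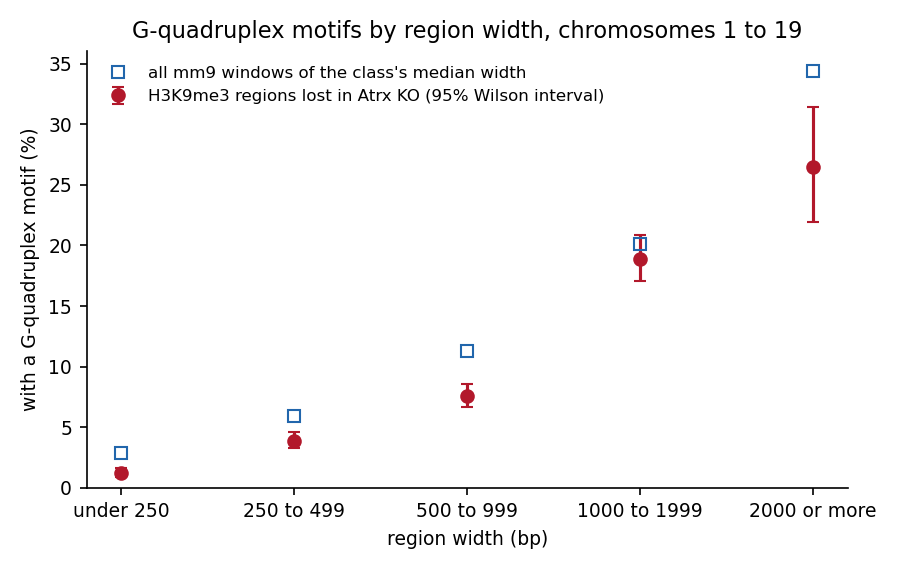
Percentage of HNDs with a G-quadruplex motif (filled circles, bars are 95% Wilson intervals) against region width in bp, with the percentage of all mm9 windows of the class's median width that hold one (open squares). The share rises from 1.24% under 250 bp to 26.4% at 2000 bp or more and lies below that of the windows in each class, with the interval reaching the window value only from 1000 to 1999 bp.

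Most HNDs with a motif had exactly 1. A single motif was found in 689 of 801 HNDs (86.0%, 83.4 to 88.2), 2 in 82, 3 in 19, 4 in 7, 6 in 2 and 7 in 2. HNDs with more than 1 motif were wider, with a median of 1305 bp against 920 bp for those with 1. All members ranged from 76 to 12904 bp with a median of 961 bp, and HNDs without the motif had a median of 394 bp. Motifs took up little of the HND, with a median of 3.49% of its bases (quartiles 2.04% and 6.75%).

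Most motifs had the smallest number of G runs that the rule allows. Of the 964 motifs 544 had 4 G runs (56.4%, 53.3 to 59.5), against 46.7% of all mm9 motifs, and 76 had 10 or more (7.88%, 6.34 to 9.76), against 8.80%. The median length was 27 bases, against 28 for all mm9 motifs. Among non-repeat motifs, 28.0% of the loops between G runs had 1 base, against 32.0% in all mm9, and the loops were of similar base composition, with 40.0% A and 30.7% T in HNDs against 40.9% A and 29.1% T. G runs lay on the forward strand in 521 motifs (54.0%, 50.9 to 57.2) and in 49.9% of all mm9 motifs. This interval counts motifs of 1 HND as separate. By HND, motifs were on the forward strand only in 402 (50.2%, 46.7 to 53.6) and on the reverse strand only in 361 (45.1%, 41.7 to 48.5). In 38 HNDs motifs were found on both strands.

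Members with the most motifs held tandem and non-repeat motifs in different proportions. The HND chr9:51842272-51845365, between genes 11738 bp from the start of Rdx at its longest motif, held 7 motifs, among them those of 55, 43 and 37 G runs. The one of 55 G runs repeated with a period of 10 bases, and those of 43 and 37 did not meet the tandem rule given below. The HND chr1:135068453-135068804 packed 6 motifs into 352 bp, of which 4 were tandem repeats and 1 of these had the unit TTAGGG. The HND chr8:12004472-12005161 had 4 motifs between genes, none of them a tandem repeat. The HND chr11:61765030-61767944 had 6 motifs near Specc1 and chr4:102166509-102168053 had 4 in Pde4b, which encodes a cAMP phosphodiesterase. The start of the motif of 55 G runs, chr9:51843344-51843443 on the forward strand, is shown because it has the most G runs of all.
First 100 bases of the motif with 55 G runs: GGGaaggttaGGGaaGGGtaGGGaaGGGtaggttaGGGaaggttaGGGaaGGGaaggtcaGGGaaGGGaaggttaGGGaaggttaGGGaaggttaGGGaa

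Within HNDs the motifs were spread almost evenly from end to end. The place of a motif was scaled from 0, at the lower coordinate of the HND, to 1 at the higher. The middle 50% of the HND held 501 of the 964 motifs (52.0%, 48.8 to 55.1), and each of 10 equal bins along the HND held from 80 to 120 motifs. The median distance to the nearer end was 229 bp, and 288 motifs (29.9%) lay within 100 bp of an end. By width class, the share in the middle 50% was highest from 500 to 999 bp (58.1%, 52.1 to 63.8) and lowest under 250 bp (39.0%, 25.7 to 54.3), where it rested on 41 motifs. Of the 964 motifs 13 continued past the end of their HND.

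**Figure D2:**
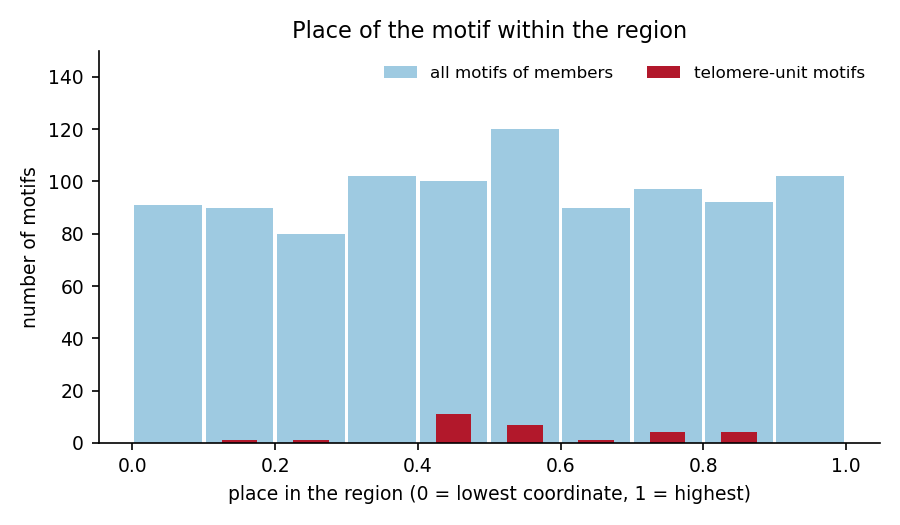
Number of motifs in 10 equal bins along the HND, from its lower (0) to its higher coordinate (1), for all 964 motifs of members (wide bars) and for the 29 telomere-unit motifs (narrow bars). All motifs together are spread almost evenly, at 80 to 120 per bin, while telomere-unit motifs gather near the centre, 22 of 29 in the middle 50%.

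Tandem repeats were a minority of the motifs, and their surplus over mm9 was small. A motif was called a tandem repeat if at least 90% of its bases equalled the base 1 unit further on, for a unit of 1 to 12 bases. This held for 153 of 964 motifs (15.9%, 13.7 to 18.3) and for 13.2% of all mm9 motifs, and the share was above that of mm9 on 14 of 19 chromosomes. With motifs of the telomere unit TTAGGG left out of both, the shares were 13.3% (11.2 to 15.6) and 13.1%. With 1 motif per HND, the one with most G runs, 113 of 801 were tandem (14.1%). A tandem motif was present in 130 HNDs (16.2%, 13.8 to 18.9), and 671 had non-repeat motifs only. The order depended on the motif rule, since with loops of up to 12 bases 6.15% of members' motifs and 6.71% of all mm9 motifs were tandem.

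The units differed widely in how often they lay in HNDs. Of the 323 TTAGGG motifs of mm9 chromosomes 1 to 19, 29 lay in HNDs (8.98%, 6.32 to 12.6), beside 0.206% of all other motifs. The share was 3.60% (1.41 to 8.90) of the 111 with 4 or 5 G runs, 6.90% (3.20 to 14.2) of the 87 with 6 to 9, and 15.2% (9.95 to 22.5) of the 125 with 10 or more. Other 6-base units together were at 0.287% (0.199 to 0.415), with GGGAGA at 0.148% (5 of 3372) and TGGGGG at 0.177% (4 of 2265). Some rarer ones were higher, with TAGGGC at 10.3% (4 of 39, in 2 HNDs) and TTTGGG at 9.09% (3 of 33, in 3 HNDs). TGGGCC was at 7.5% (3 of 40, in 1 HND), TCAGGG at 6.67% (2 of 30, in 2 HNDs) and TTGGGG at 4% (2 of 50, in 2 HNDs). GGGGGA was at 0.246% (3 of 1219). These units could be named only because they had motifs in HNDs, and any unit with none counts only in the joint 0.287%. The intervals count motifs of 1 HND as separate, as also for the 29 TTAGGG motifs in 24 HNDs. The 10-base unit TTGGGAGGAG was at 13.5% (6.68 to 25.3), with 7 of 52 motifs in 7 HNDs on 6 chromosomes. Repeats of the 4-base unit GGGA, the commonest tandem motif in mm9, were low with 16 of 18368 (0.0871%, 0.0536 to 0.141). GGGAA was at 0.0580% (1 of 1723) and GGGGA at 0.0939% (3 of 3195). Repeats of G alone were at 0.200% (0.134 to 0.298), near the 0.213% of all motifs.

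**Figure D3:**
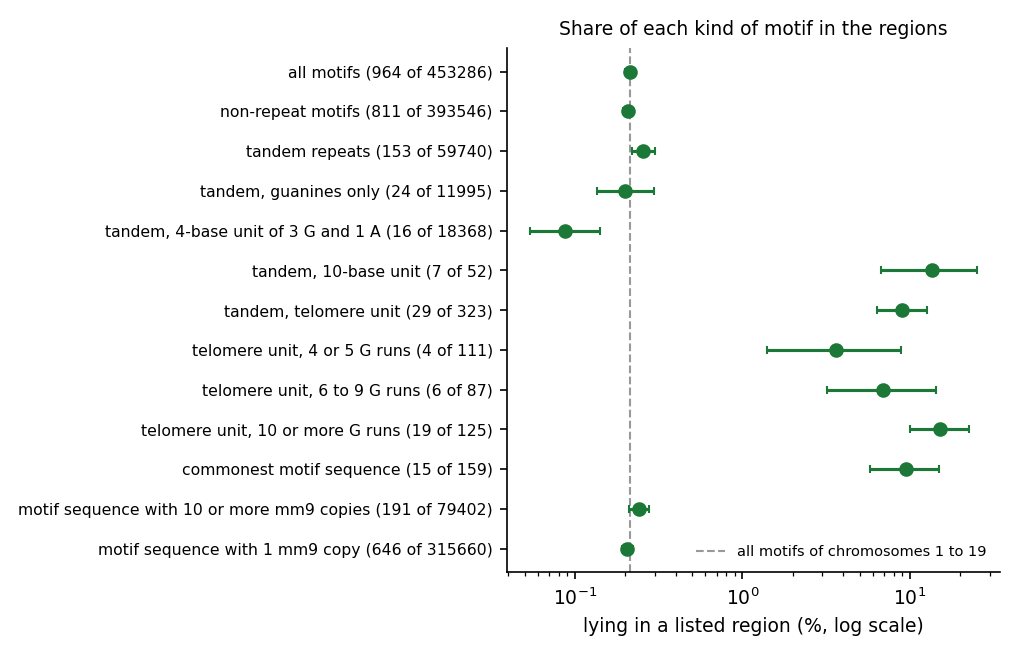
Percentage of the mm9 motifs of each kind, chromosomes 1 to 19, that lie in an HND (log scale, bars are 95% Wilson intervals, counts in brackets). The dashed line is the 0.213% of all motifs, and the 10-base unit and the commonest motif sequence were chosen for recurring in HNDs. Telomere units (8.98%), the 10-base unit (13.5%) and the commonest motif sequence (9.43%) lie to its right, and the 4-base unit of 3 G and 1 A (0.0871%) to its left.

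HNDs with telomere-unit motifs were mostly narrow, with the motif near the centre. There were 24 of them on 13 chromosomes, their median width was 263 bp (quartiles 260 and 266), and 18 of the 24 were between 253 and 271 bp wide (75%, 55.1 to 88.0). Among the rest, 21 of the other 777 members (2.70%) and 446 of the HNDs without a motif (4.02%) had such a width, a range set by these 18 HNDs. The wider range of 250 to 299 bp, also chosen after the widths were seen, held the same 18 and 1014 HNDs without a motif (9.14%), as well as 8 of the 106 members with other tandem repeats (7.55%), 3 of the 21 with dispersed sequence A in up to 2 substitutions (14.3%) and 29 of the other 650 (4.46%). In 17 of these 18 the longest telomere-unit motif had 70 to 107 bp of the HND on each side of it, and in 2 of the 17 a shorter telomere-unit motif lay within those bases. The remaining one of the 18, in an intron of Sh3bgrl2, had a motif of 7 G runs with 56 and 168 bp beside it. The longest motifs in the 18 HNDs had from 7 to 19 G runs.

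**Figure D4:**
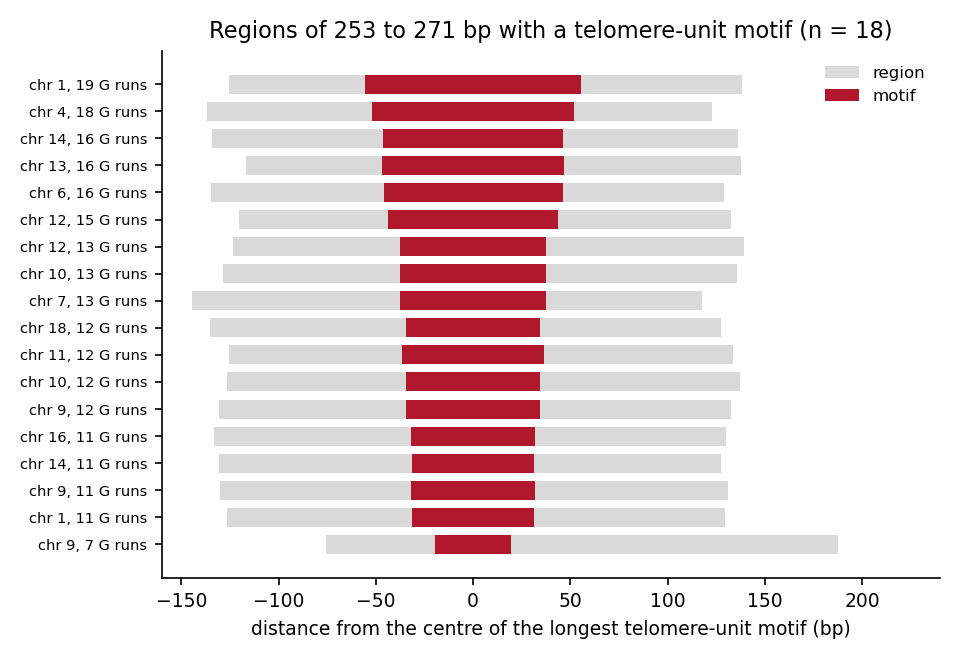
The 18 HNDs of 253 to 271 bp with a telomere-unit motif, aligned at the centre of the longest such motif, with distance in bp on the x axis (grey, HND; red, motif) and ordered by number of G runs. The HNDs were picked for their width, and in all but the one with 7 G runs the motif lies near the centre.

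The other 6 HNDs with telomere units were 237 to 1541 bp wide. The one of 237 bp, in an intron of Cadps, which encodes a protein of vesicle release, also had its motif near the centre, with 95 and 85 bp beside it. The other 5 were 352 to 1541 bp wide, and in those the motifs lay from place 0.188 to 0.858. Of the 29 telomere-unit motifs 16 lay in genes (55.2%, 37.5 to 71.6), among them introns of Rims1, Pde1c, Pde7b, Gria1, Immp2l, Ppp2r2b and Slc14a2. The interval held the 43.0% of all mm9 motifs, and the share for all mm9 telomere-unit motifs was not worked out. Several of the 16 shared an HND and were counted as separate.

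Outside telomere units, a few motif sequences recurred in HNDs as parts of longer repeats. The commonest, sequence A, was found in 15 HNDs on 11 chromosomes, from 132 to 1368 bp wide, and these were 15 of its 159 copies as a motif on mm9 chromosomes 1 to 19, over which all copies of these sequences were counted (9.43%, 5.80 to 15.0). With up to 2 substitutions 21 of 338 copies were in HNDs (6.21%). Its copies resembled their consensus in the neighbouring 100 bases (84.5% identity before and 83.0% after the motif) and no longer did so 1000 bases away (30.8% and 31.9%). These values describe a dispersed repeat much shorter than 1 kb on each side, and no repeat annotation was used here to name it. In contrast to telomere units, the motifs mostly lay off centre, with 5 of those 21 in the middle 50% of the HND.

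Other dispersed sequences were found in fewer HNDs. Sequences B and C were each found in 6 HNDs, which were 8.45% (3.93 to 17.2) of 71 copies and 6.06% (2.81 to 12.6) of 99 copies. Of sequence D, 4 of 13 mm9 copies were in HNDs (30.8%, 12.7 to 57.6). These sequences were picked for recurring in HNDs, and of the 1779 motif sequences with 10 or more copies on chromosomes 1 to 19, 43 had at least 5% of them in HNDs. In contrast, 15 G in a row were found in 5 HNDs but 2187 times in mm9 (0.229%), and 8 units of GGGA in 4 HNDs and 746 times in mm9 (0.536%). Recurrence was the exception, since 37 of the 879 different motif sequences of members (4.21%) were in more than 1 HND.

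One motif sequence was almost confined to HNDs at a single place. It occurred 12 times on mm9 chromosomes 1 to 19, each time on the forward strand of chr9:34880273-34897678, and 11 of the 12 lay in 2 neighbouring HNDs of 7498 and 12904 bp, chr9:34878572-34886069 and chr9:34886760-34899663. The twelfth lay in the gap between them, at chr9:34886492-34886514. Neighbouring copies were 1198 to 1242 bp or 2483 to 2538 bp apart, and the 100 bases on each side matched their consensus at 97.6% and 97.4%. The array is in an intron of St3gal4, which encodes a sialyltransferase and is transcribed from the reverse strand, so the G runs are on its template strand. Of the 50-base words of these HNDs only 2.35% and 8.02% occurred once in mm9, which limits how reads kept for mapping uniquely can be placed there. This sequence was singled out after its counts were seen.

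Most motifs lay outside genes. Of the 964 motifs 321 were inside an annotated gene (33.3%, 30.4 to 36.3), against 43.0% of all mm9 motifs, and the share was lower than that of mm9 on 18 of 19 chromosomes. Of all HND bases, with or without a motif, 33.8% were in genes, against 40.6% of the bases of the chromosomes, so the low share held for the list and was not particular to members. Introns held 294 (30.5%, 27.7 to 33.5, against 39.4%), UTRs 7 (0.726%, 0.352 to 1.49, against 2.06%), coding exons 5 (0.519%, 0.222 to 1.21, against 0.860%) and exons of transcripts with no coding annotation 15 (1.56%, 0.945 to 2.55, against 0.686%). Within 1 kb of a gene start there were 28 motifs (2.90%, 2.02 to 4.17), against 5.98% of all mm9 motifs. The centre of the HND was that near a gene start for 2.50% of members (1.62 to 3.83) and 2.09% of other HNDs (1.84 to 2.37). Beside other HNDs of like width, the centre was in a gene for 36.6% of members and 27.8% of other HNDs under 250 bp, and for 25.9% and 28.8% from 250 to 499 bp. The values were 30.5% for both from 500 to 999 bp, 34.9% and 34.8% from 1000 to 1999 bp, and 46.0% and 44.2% at 2000 bp or more.

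G runs were divided about evenly between the strands of genes. They were on the coding strand for 159 motifs and on the template strand for 147, with 15 more where genes of both orientations overlap, so that 52.0% of those with 1 orientation (46.4 to 57.5) were on the coding strand. Over all mm9 motifs the value was 46.3%, just below this interval, and on 13 of 19 chromosomes the members' share was higher. In introns the coding strand had 150 motifs and the template strand 134 (52.8%, 47.0 to 58.5, against 46.6%). In exons it was 9 against 13, and within 1 kb of the start inside genes 4 against 10 (28.6%, 11.7 to 54.6), where 56.7% of all mm9 motifs had their G runs on the coding strand. Tandem motifs were on the coding strand in 53.4% (40.8 to 65.7, 31 against 27), beside 43.0% of all mm9 tandem motifs. Non-repeat motifs were at 51.6% (45.4 to 57.8, 128 against 120), beside 46.9% in mm9. The intervals of tandem and of non-repeat motifs held their mm9 values, while those of all motifs, of introns and near gene starts did not. All these intervals count motifs of 1 HND as separate. The difference between tandem and non-repeat motifs was not tested. Without the 11 motifs of the St3gal4 array, all on its template strand, the coding-strand share of all members' motifs with 1 orientation was 53.9% (48.2 to 59.5).

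**Figure D5:**
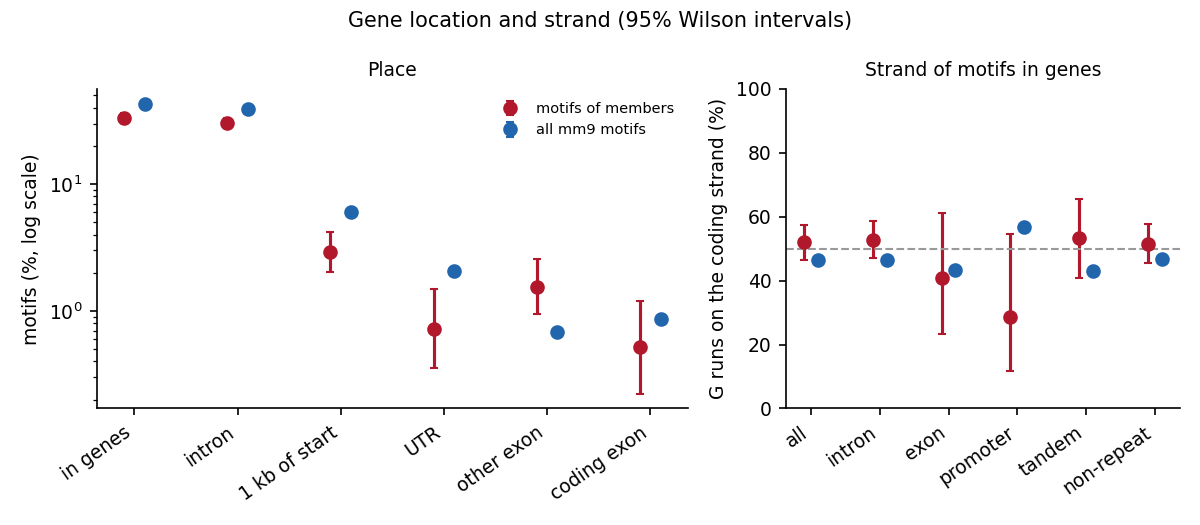
Left, percentage of the 964 motifs of members (red) and of all mm9 motifs (blue) in each annotated place, on a log scale. Right, percentage of motifs in genes with G runs on the coding strand, with a dashed line at 50%. Bars are 95% Wilson intervals. Members' motifs are at 33.3% in genes, beside 43.0% of all mm9 motifs and 33.8% of all HND bases, and at 2.90% near gene starts, beside 5.98% of all mm9 motifs, and the strands are close to even at 52.0%.

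Motifs in members lay in 265 genes, 232 of them protein-coding, and 12 genes had motifs from more than 1 HND. Gria1, which encodes a subunit of AMPA glutamate receptors, had 5 such HNDs with 6 motifs, 5 of them on the coding strand. Cdh13, which encodes T-cadherin, had 4 HNDs with 5 motifs, 2 on the coding and 3 on the template strand. The other 10 genes, St3gal4 among them, had 2 HNDs each. Gria1 is 318858 bp and Cdh13 1041189 bp long. The counts were not adjusted for gene length or set beside all HNDs of a gene.

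Exons of protein-coding genes were touched by 13 motifs in 10 HNDs. In coding exons G runs were on the template strand in each of the 5 cases, among them a motif each in 1190002H23Rik and in Sdr42e1 and a pair in Adam11, a member of the ADAM family of membrane proteins. UTR motifs were found in Ubqln4, which encodes a ubiquilin (1 on each strand), in Gal3st2 (coding strand), in Csnk2a2, which encodes a catalytic subunit of casein kinase 2 (template strand), in Sept9, a septin gene (template strand), and in 4930404N11Rik and F630110N24Rik, which overlap on opposite strands. The last was in an exon of Grid1, a glutamate receptor gene of the delta class, on the template strand. Printed here are the coding-exon motif in 1190002H23Rik (chr14:79700704-79700731, forward strand) and the longer of the pair in Adam11 (chr11:102638284-102638306, reverse strand).
1190002H23Rik: GGGGctaGGGGaGGGaGGGcacagaGGG
Adam11: GGGacctGGGGaggaGGGtaGGG

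Few motifs were near the start of a protein-coding gene. Within 1 kb of such a start there were 14 motifs in 11 HNDs (1.45%, 0.867 to 2.42, against 4.75% of all mm9 motifs), and 5 of the 14 had their G runs on the coding strand. The nearest lay 55 bp from the start of Serpina3a, of the serine protease inhibitor family, and had dispersed sequence C printed above. It was followed by Gal3st2 (68 bp), a pair at AF085738 (74 and 297 bp), a pair at Gm9008 (200 and 833 bp) and a pair at Spata22, a gene of meiotic recombination (347 and 472 bp). Farther off were Izumo2 (529 bp), the germ-cell gene Dazl (606 bp), Gm70 (713 bp), 1190002H23Rik (725 bp), the acyl-CoA thioesterase gene Acot4 (889 bp) and Psg17 (952 bp). Printed here is the motif at Dazl, chr17:50433523-50433538, and the longer of the pair at Spata22, chr11:73143692-73143738, both on the reverse strand, which is the coding strand of Dazl and the template strand of Spata22. Over all members' motifs the median distance to the nearest such start was 58.6 kb, against 51.6 kb for all mm9 motifs.
Dazl: GGGGcGGGGGGGGGGG
Spata22: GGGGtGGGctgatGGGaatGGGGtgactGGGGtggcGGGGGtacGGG

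Members were also compared with other HNDs in traits that the motif rule did not use. Under 250 bp the values of members rest on 41 HNDs. Words of 50 bases that occur once in mm9 made up 85.1% of the words of members, motifs included, and 73.0% of those of other HNDs. By width the shares were 77.1% and 70.4% from 250 to 499 bp, 85.4% and 76.0% from 500 to 999 bp, 88.4% and 75.6% from 1000 to 1999 bp, and 82.0% and 70.1% above that, while under 250 bp both were at 62.3%. HNDs with no such word were 2.37% of members and 9.68% of the others, and by width 12.2% and 17.1% under 250 bp, 2.16% and 8.27% from 250 to 499 bp, 2.54% and 6.50% from 500 to 999 bp, 1.01% and 3.05% from 1000 to 1999 bp, and 2.30% and 2.07% above that. GC content outside the motifs had a median of 46.1% in members and 45.6% in other HNDs. Under 250 bp it was lower in members (46.1% and 47.8%), and it was higher in each of the wider classes, as from 1000 to 1999 bp (46.3% and 44.3%). Median CpG density outside motifs was 10.4 and 8.88 per kb, with 13.4 and 8.62 under 250 bp and the opposite order at 2000 bp or more (10.1 and 10.8). The hexamer TTAGGG, on either strand and outside motifs, was in 32.2% of members and 18.6% of other HNDs. By width these were 2.44% and 5.52% under 250 bp, 12.9% and 14.8% from 250 to 499 bp, 25.4% and 25.5% from 500 to 999 bp, 39.9% and 39.7% from 1000 to 1999 bp, and 69.0% and 57.4% above that.

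Most motifs of members were single sequences rather than copies. With 20 bases on each side, 80 of 964 (8.30%, 6.72 to 10.2) occurred more than once in mm9, against 6.82% of all mm9 motifs, and 29 (3.01%, 2.10 to 4.29) occurred 10 times or more, against 3.42%. With 50 bases on each side 2 motifs (0.207%, 0.0569 to 0.753) had 10 or more copies, against 2.00% of all mm9 motifs. Counted among the motifs of chromosomes 1 to 19 alone, sequences found once lay in HNDs at 0.205% (0.189 to 0.221) and those with 10 or more copies at 0.241% (0.209 to 0.277).

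The surroundings of members were slightly richer in motifs than those of other HNDs, a difference that was not tested. In the 5 kb on each side, with HND bases left out, the density was 206 per Mb ± 36.3 (SD over 19 chromosomes) for members and 185 ± 9.31 for other HNDs, against 189 over the chromosomes as a whole. It was higher beside members on 12 of 19 chromosomes. In the first 1 kb the values were 222 ± 52.8 and 169 ± 13.3 per Mb. The SDs describe single chromosomes and are not errors of these pooled densities. Another member lay within 10 kb of 16 of 801 members (2.00%, 1.23 to 3.22). Members are 6.73% of HNDs, and the share that random placement would give was not worked out. Another HND of any kind was within 10 kb of 21.5% of members (18.8 to 24.4) and of 20.1% of other HNDs (19.3 to 20.8).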

How the data were processed

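Chromatin of mouse ESCs was digested with MNase and sonicated, and immunoprecipitated DNA was sequenced as single-end reads. The authors aligned reads with Bowtie2 to mm9, kept unique reads, called broad H3K9me3 peaks against input with MACS2 and kept peaks present in wild type and absent in the knockout with bedtools, as stated in the submitters' processing notes and the study's methods, without versions. The deposited list holds chromosome, start and end in bp, pooled over replicates, and no p-value, signal or depth.

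Sequences were read from NCBIM37, the same build as mm9, with which 0 of 13113 regions ran past a chromosome end, and genes from GENCODE M1. The search, in Python 3.11.15 (numpy 2.4.6, scipy 1.17.1, numba 0.67.0), took maximal chains of G runs on each strand. It gave 0 differences from a regular expression in 4000 simulated sequences. Copies of a motif with or without its context were counted over the whole assembly, and groups of identical motif sequences among the motifs of chromosomes 1 to 19. The place of a motif was scaled over the bases it could start at. Location was assigned in the order coding exon, UTR, other exon, intron. Windows were tiled without overlap and without unknown bases. Figures were drawn with matplotlib 3.10.9. Named items were the 6 HNDs with most motifs, the 6 motif sequences in most HNDs, up to 15 motifs in protein-coding exons, up to 15 within 1 kb of a protein-coding start, up to 8 with telomere units and the 6 non-repeat motifs with most G runs; other HNDs with telomere units were named after their values were seen. The members and lists were chosen with earlier results of these data known. Some sequences that the naming rule selects are not reported here.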

Additional observations from a re-analysis of the deposited data

Results flagged for a closer look

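HNDs on the sex chromosomes were outside the comparisons above and also held motifs. Their widths and the motif density of these chromosomes were not taken into account in the shares. A motif was present in 31 of 1040 HNDs on chromosome X (2.98%, 95% Wilson interval 2.11 to 4.20) and in 26 of 174 on chromosome Y (14.9%, 10.4 to 21.0), with 31 motifs on each, below and above the 4.08% to 8.70% of the other chromosomes.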

How the results depend on the processing

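No paired analysis was possible because the 2 libraries of each group enter 1 pooled set of coordinates, and for the same reason leaving out a replicate gave no value. Of 47 alternatives 35 left the value within its interval (for the number of members within 1.5 times, for density within the SD over chromosomes) and 12 moved it, the cause of which was not tested beyond the construction of the alternative. With loops of up to 12 bases there were 1465 members, 19.6% of them had more than 1 motif, 6.15% of motifs were tandem, 12.3% had a repeated context (6.36% in all mm9) and flank density was 325 per Mb. Counting the forward strand only left 440 members. Tandem motifs were 13.7% where loops held no run of 3 or more G (10.8% in all mm9), 29.5% at 80% matching bases (25.3%) and 7.68% at all bases (5.89%). Motifs in protein-coding genes alone were 29.9% (40.6%). Repeated contexts were 5.39% with 50 bases on each side and 33.7% for the motif alone. The share in the middle 50% of the HND (49.1% to 53.2%) and on the coding strand (50.2% to 53.7%) stayed within their intervals throughout. The study reports read numbers for its libraries, but the list holds no depth or signal at any HND. This limits what can be said of any single HND.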
